A study of Mus musculus with 8 samples.

Results

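The regions described here are islands of H3K27me3 that were listed in mouse liver when long chromatin fragments were sequenced, and in none of the lists made from shorter fragments. They were chosen by comparing lists. An autosomal island of the vehicle library of fragments over 1100 bp was taken when it shared no base with any island of the 6 libraries of 600 to 1100 bp fragments and when islands of the TCPOBOP library of fragments over 1100 bp lay over at least 50% of it. The rule chose 4868 of the 17512 autosomal islands of that vehicle list (27.8%), and the 8 lists of the series hold 107140 islands in all. They are called long-fragment-only islands, or members, below. The lists that chose them are used as a description, with no test.

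H3K27me3 chromatin immunoprecipitation sequencing was done on frozen liver from 7-week-old male mice of the outbred CD-1 stock. Mice had received TCPOBOP at 3 mg/kg, an agonist of the nuclear receptor CAR, or the vehicle (corn oil with 1% DMSO), 3 h before the liver was collected. All groups were otherwise untreated wild-type males. Fragments of 600 to 1100 bp, digested to 500 bp, gave 3 vehicle and 3 TCPOBOP libraries from separate livers, and fragments over 1100 bp, digested to 200 bp, gave 1 library for each treatment, made from the replicate 1 immunoprecipitate. Whole liver was used, so fewer cells with the mark and less mark per cell cannot be told apart.

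H3K27me3 is trimethylation of lysine 27 of histone H3, placed by Polycomb repressive complex 2, whose catalytic subunit is Ezh2 or Ezh1. It is known in compact form over the promoters of silent developmental regulators, such as the Hox genes, and also as a wide and low cover over silent chromatin between genes. SICER, the island caller named in the submitters' processing notes, joins windows with enough reads into islands and is made for marks that spread.

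Library depth differed with fragment class. The mean background, worked out from the island scores under an assumed Poisson form, was 14.2 reads per 400 bp window in the vehicle library and 14.5 in the TCPOBOP library of fragments over 1100 bp. In the 6 libraries of 600 to 1100 bp it was 2.398 to 3.26. The lists of longer fragments covered 653 and 675 Mb of the autosomes, and the other 6 covered 174 to 340 Mb. Depth, fragment class and digestion changed together, so their parts in what follows cannot be told apart. The lists may be held here only in part. On chromosome 11 between 96022001 and 96374000 the 4 longest stretches listed in all 6 shorter-fragment libraries had no island in either longer-fragment list.

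The long-fragment-only islands were narrower than the rest of the list and low in score. A narrow island is less likely to share a base with any of 6 lists, and wider islands tended to score higher. These differences are therefore in part built into the rule. They covered 111.6 Mb, or 17.1% of the island length of the vehicle list. Their widths ran from 1.6 to 233 kb with a median of 19.6 kb (quartiles 14 and 27.6 kb), and 244 were 50 kb or wider. The other islands of the list had a median of 27.2 kb. The authors' score is a value per island within its own list. It ran from 101.9 to 2184 in the long-fragment-only islands, with a median of 178 against 395 in the others. Score per kb had a median of 9.61 against 15.01. Islands in 1 of the 6 shorter-fragment lists were nearer, with medians of 21.6 kb, a score of 223 and 10.9 score units per kb. By score the best placed member ranked 1233 of 17512, so the 1000 highest-scoring islands held 0 members.

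The place of these islands in the list was graded. When the vehicle list was divided into 10 bands of equal number by score, they made up 44.1, 45.1 and 48.7% of the 3 lowest bands. They made up 31.0% of the sixth band, 8.28% of the eighth and 2.399% in the ninth. The highest band, with scores from 1626 to 52780, held 1 of them. In the lowest band 64.1% of islands were in none of the 6 shorter-fragment lists, so a further group there lacked support from the TCPOBOP list. From the eighth band up, 189 islands were in none of the 6 lists, and 188 of these met the full rule.

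**Figure D1:**
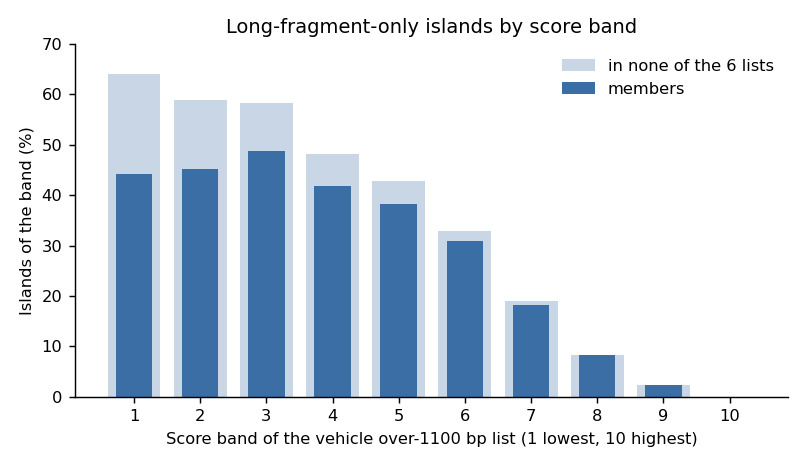
Percent of islands of the vehicle over-1100 bp list (y axis) in each of 10 score bands of equal island number (x axis), for islands in none of the 6 lists of 600 to 1100 bp fragments (pale bars) and for those that also met the rule on the TCPOBOP list (dark bars). The dark bars fall from 44.1 to 48.7% in the 3 lowest bands to 2.40% in the ninth.

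Score per window was turned into a read level, as the number of reads that would give the same score if spread evenly over the island. On this measure the long-fragment-only islands had a median of 1.48 times the library background (quartiles 1.33 and 1.64). Islands listed in 1 of the 6 shorter-fragment libraries had a median of 1.56, those in 3 had 1.68, those in 5 had 1.90 and those in all 6 had 2.16. The level therefore rose with each added library. A window counted towards an island from 18 reads in the vehicle library of longer fragments, which is 1.27 times its background. In the shorter-fragment libraries the threshold was 5 or 6 reads, which is 1.66 to 2.09 times background. The median level of the long-fragment-only islands lay above the first value and below all 6 of the others. The level is approximate, since windows under the threshold add nothing to a score.

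**Figure D2:**
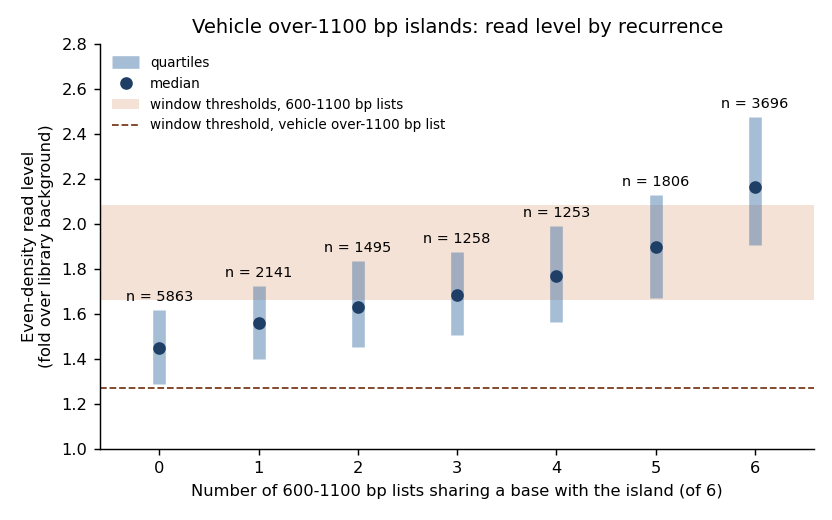
Even-density read level of vehicle over-1100 bp islands as a fold over library background (y axis), by the number of 600 to 1100 bp lists that share a base with the island (x axis). Points are medians, thick bars quartiles, n the islands in each class. The dashed line at 1.27 is the window threshold of the vehicle over-1100 bp list and the shaded band the thresholds of the other 6 lists, 1.66 to 2.09. The class at 0 holds 5863 islands, of which 4868 met the full rule.

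In a measure devised after the lists had been seen, each island was then set against each shorter-fragment list, asking whether its level would reach that list's window threshold and its even-density score the lowest score in that list. Of the 4868 long-fragment-only islands, 4113 (84.5%) reached 0 of the 6 lists by this measure. A further 722 reached 1 to 5 lists and 33 (0.678%) reached all 6. Among the 3696 islands found in all 6 lists, the measure gave 371 (10.0%) at 0 lists and 2071 (56.0%) at all 6. Those shares show how closely the measure follows the real lists, which is only in part. By the same level, 82.5% of members reached the window threshold of the vehicle longer-fragment list that called them. Among islands in all 6 lists the share was 99.3%. The level thus places some members below the threshold of their own list, so the 84.5% may be too high. Absence from the 6 lists also selects islands of low score, so a low reach follows in part from the choice. The measure takes the level to be the same in the shorter-fragment libraries, which was not tested.

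The 33 islands that reached all 6 lists by level were picked by their score per window, so their median score per kb of 28.4 restates that choice. They were 8.4 to 32.0 kb wide, with a median of 11.2 kb. Of these, 21 lay wholly under islands of the TCPOBOP list. The strongest, by level and by score, was a 15.2 kb island on chromosome 12 from 113933201 to 113948400. Its level was 3.18 times background, its score 911 in the vehicle list, and an island of 16.8 kb with a score of 795 lay over it in the TCPOBOP list. The nearest island of shorter fragments ended 12.8 kb away. The next by level was on chromosome 18 (72501601 to 72513600), at 2.53 times background. The next by score were 30.8 kb on chromosome 1 (169412001 to 169442800, score 796, 2.21 times background) and 32.0 kb on chromosome 11 (82987201 to 83019200, score 782, 2.16 times). Rows of the shorter-fragment lists may be missing at such places, which was not tested.

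The second longer-fragment library came from a TCPOBOP-treated liver, and its islands were part of the rule. Of the 5863 islands in none of the 6 lists, 4868 (83%) were at least 50% covered, against 90.6% of all autosomal islands of the vehicle list and 97.9% of those in all 6 lists. Cover above the 50% that the rule asked for is given as a description. The median cover was 94.4%, and 1635 islands (33.6%) lay wholly under TCPOBOP islands. Over all autosomal islands of the vehicle list the median was 94.7% and 30.1% lay wholly under TCPOBOP islands. That set has no 50% limit. Without the limit, the 5863 islands in none of the 6 lists had a median of 90% and 27.9% lay wholly under TCPOBOP islands. The closeness of the members to the whole list thus rests in part on the limit. A single TCPOBOP island touched 4273 of them (87.8%) and 595 were broken over more than 1. Ends differed between the lists, since 190 (3.90%) had the same start and end in both, and the larger of the 2 end differences had a median of 5.2 kb. Score per kb went together in the 2 lists over the 4868 islands, with a Pearson r of 0.733 on the log scale and a Spearman rho of 0.711. Both lists share the genome's mappability and base composition, so no p is given.

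With the 2 longer-fragment lists exchanged, the same rule chose 5658 of 21986 TCPOBOP islands, over 115.0 Mb. Of the 4868 vehicle islands, 4410 (90.6%) shared bases with that set, and 4649 of the 5658 (82.2%) shared bases with the vehicle set. With 1 library per treatment there is no replicate check of any treatment difference in this fragment class. At the edge of the rule, 67 islands had a cover of 50 to 52%, with a median of 22.4 kb and 8.51 score units per kb. The 35 islands from 48% up to the limit had medians of 24.8 kb and 7.15. Islands sharing a single 400 bp window at most with any shorter-fragment list numbered 22, with medians of 19.2 kb and 8.42.

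The 5 widest long-fragment-only islands lay in gene-poor intervals or long genes, as far as approximate mm9 positions from general knowledge allow. No mm9 annotation was used here, so these placements are not from an annotation. They were looked up after the islands were known. The widest spanned 233 kb on chromosome 12, from 108608401 to 108841600, at 9.37 score units per kb. It was 76.2% covered by 6 TCPOBOP islands, and the nearest shorter-fragment island was 6.0 kb away. The third widest lay less than 1 Mb before it, 137 kb from 107726401 to 107863200, with a cover of 77.5%. Both fall between Vrk1, which encodes a chromatin-associated kinase, and Bcl11b, which encodes a zinc-finger transcription factor of T cells and neurons. In the GRCm38.p6 RefSeq order, 2 protein-coding genes stand between them, both predicted loci (Gm46320 and Gm52008).

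That interval shows the contrast between fragment classes over 1.7 Mb. In an approximate window from 107400001 to 109100000, islands of longer fragments covered 94.6% with vehicle and 84.4% with TCPOBOP. For shorter fragments the cover was 9.55, 5.88 and 3.39% with vehicle (replicates 1 to 3) and 3.32, 2.24 and 0% with TCPOBOP. Only scattered narrow islands were thus listed there in any shorter-fragment library, and TCPOBOP replicate 3 had none. The 8 long-fragment-only islands in the window took 43.3% of it, since the 10 other vehicle islands there each shared a base with a shorter-fragment island. Levels in this window were low, at 1.46 times background in the widest island and 1.47 in the third widest.

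**Figure D3:**
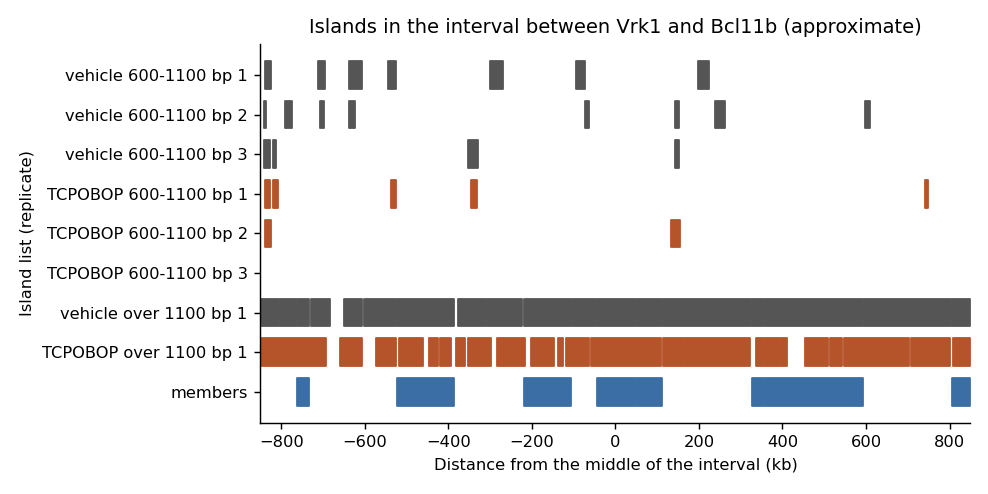
Islands of each of the 8 lists, and the long-fragment-only islands (lowest row, "members"), along 1.7 Mb of chromosome 12 between the approximate positions of Vrk1 and Bcl11b. The x axis is the distance in kb from the middle of the interval, each row is a list with its replicate number, and bars are islands. The 2 longer-fragment lists cover 94.6 and 84.4% of the interval and the shorter-fragment lists 0 to 9.55%.

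The second widest island was 138 kb on chromosome 12, from 76116001 to 76254400, over Kcnh5, which encodes a voltage-gated potassium channel of neurons. In an approximate 240 kb window over this gene, longer fragments covered 83.2% with vehicle and 89.0% with TCPOBOP. Shorter fragments covered 0% in 5 of 6 livers and 2.17% in TCPOBOP replicate 1. A shorter-fragment island came within 0.4 kb of this member. The fourth widest was 136 kb on chromosome 5, from 132288001 to 132423600, inside Auts2, a very long gene linked to brain development. It was the weakest of the 5, at 1.23 times background and 66.7% cover in the TCPOBOP list. The window over Auts2 differed from that over Kcnh5, since shorter fragments covered 28.9 to 42.5% of it in all 6 livers, and the nearest such island was 74.4 kb from the member. The fifth was 120 kb on chromosome 19, from 28104001 to 28223600, between Rfx3 and Glis3, which encode transcription factors of ciliated and islet cells and between which RefSeq lists 0 protein-coding genes. A single TCPOBOP island of 116.8 kb covered 97.7% of it.

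By score, 4 of the first 5 were among these. The other was 94.0 kb on chromosome 5, from 129133201 to 129227200, with a score of 1231 and a TCPOBOP cover of 96.2%. Neighbouring members were common. After a member, the next island of the vehicle list was also a member in 48.1% of cases, and after any other island in 19.99%. Of the 4868, 3340 (68.6%) stood in runs of more than 1 with no other vehicle island of longer fragments and no shorter-fragment island between, and the largest run held 16. No such share was worked out for the other islands. The caller's gap was 2400 bp, so neighbours a little farther apart may be parts of 1 wider stretch. Whether they were was not tested. The 3 longest runs crossed sparse stretches. They spanned 6663 kb on chromosome 1 (24634401 to 31297200, 6 members), 5138 kb on chromosome 2 (96154401 to 101292000, 6 members) and 4184 kb on chromosome 7 (20588001 to 24772400, 2 members). Members took 0.832 to 2.14% of these spans.

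In bins of 1 Mb, a count made after the lists had been seen, 985 of 2459 autosomal bins held no base of a long-fragment-only island and 395 (16.1%) were at least 10% covered by them. The highest was the bin of chromosome 12 from 108000001 to 109000000, at 52.7%. There the longer fragments covered 97.5 and 87.2%, and the 6 shorter-fragment libraries 0 to 5.48%. It was followed by a bin of chromosome 9 from 87000001, at 47.2%, with 17 members and a cover of 67.3 and 65.3% in the longer-fragment lists against 2.4 to 6%. In 23 bins both longer-fragment lists covered at least 70% and each shorter-fragment list under 20%. After the chromosome 12 bin, the highest of these by members were chromosome 9 from 27000001 (33.1%), chromosome 15 from 92000001 (32.8%) and chromosome 16 from 12000001 (32.6%).

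Distance from other islands varied widely. The gap to the nearest island of any shorter-fragment library had a median of 39.2 kb (quartiles 13.6 and 108 kb). It was at most 10 kb for 971 members (19.9%) and over 100 kb for 1298 (26.7%). Those within 10 kb had a median of 11.0 score units per kb and 18 kb, those beyond 100 kb 8.66 units per kb and 20 kb. The farthest stood 2964 kb from any such island, on chromosome 2 from 97302401 to 97313200. It was 10.8 kb wide, 1.99 times background and wholly covered in the TCPOBOP list. The next were 2272 kb away on chromosome 15 (21037201 to 21043600), 2262 kb away on chromosome 7 (11081601 to 11094800), and 2014 and 2008 kb away on chromosome 16 (78920001 to 78945200 and 79170001 to 79183200).

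A few members were small and dense. Only 12 were under 4 kb, with 31.5 to 148 score units per kb, and 10 of them were wholly covered in the TCPOBOP list. Of the shorter-fragment lists, vehicle replicate 1 and TCPOBOP replicate 3 held no autosomal island under 4.0 kb and TCPOBOP replicate 2 none under 3.2 kb. The densest was 1.6 kb on chromosome 4 (155628401 to 155630000), at 148 units per kb in the vehicle and 100.8 in the TCPOBOP list. No island of any list lay beyond it on that chromosome. The next was 2.4 kb on chromosome 7 (130028001 to 130030400), at 73.5 units per kb, but the TCPOBOP island over it was 6.8 kb wide at 18.5. The third was the chromosome 12 island at 113933201. The other 2 of the 5 densest were 4.4 kb on chromosome 15 (37094801 to 37099200, 52.15 units per kb) and 3.2 kb on chromosome 5 (138648001 to 138651200, 50.7 units per kb).

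The share of members differed between autosomes. They made up 24.9% of the vehicle list's island length on chromosome 3, 24.0% on chromosome 18 and 22.2% on chromosome 12. The lowest shares were 12.8% on chromosome 4, 13.2% on chromosome 11 and 13.3% on chromosome 7. Across the 19 autosomes the share went down with protein-coding genes per Mb in RefSeq (GRCm38.p6), with a Pearson r of -0.700 and a Spearman rho of -0.80. All 19 values come from the same library, so this is a description. As a percent of each chromosome's span, members and gene density had a Pearson r of -0.251 and a Spearman rho of -0.396. For the other vehicle islands these were 0.733 and 0.763. The other islands took 32.2% of chromosome 11 and 15.001% of chromosome 3. Members took 4.89% and 4.97% of the same chromosomes. Counts given the score were also uneven. Against the number that each chromosome's mix of score bands would give, chromosome 18 had 1.23 times as many members, chromosome 15 had 1.19 times and chromosome 6 had 0.871 times.

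**Figure D4:**
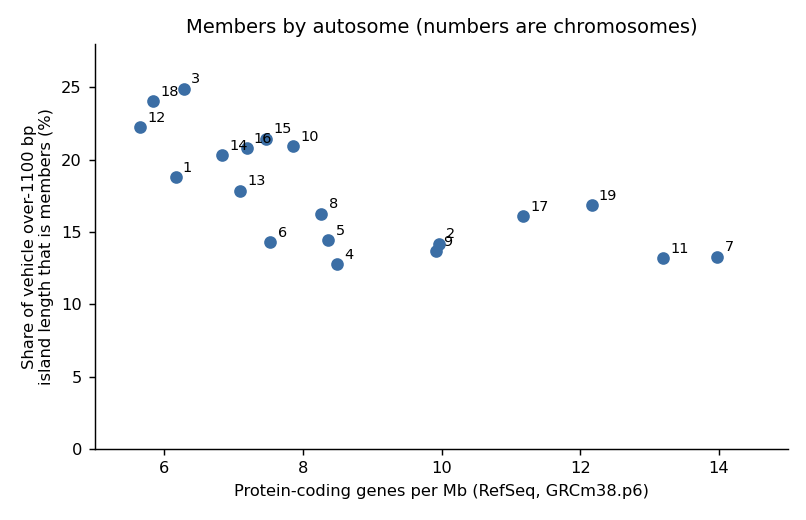
Share of the vehicle over-1100 bp island length made up by long-fragment-only islands (y axis, percent) against protein-coding genes per Mb (x axis, RefSeq GRCm38.p6). Each point is an autosome. Shares run from 24.9% on chromosome 3 to 12.8% on chromosome 4.

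Windows over known gene families, at approximate mm9 positions from general knowledge, show how members were spread over silent and expressed genes. Members covered 4.52% of all autosomes. In the 6 windows over olfactory receptor genes, which are silent in liver, 13 members covered 1.83% and all vehicle islands of longer fragments 5.11%, against 26.4% of the autosomes. The chromosome 7 window had the most, with 6 members over 4.32%, and longer fragments covered 14.9% of it against 1.33 to 5.92% for shorter ones. The proximal chromosome 2 window had 1 member in 4.8 Mb and no shorter-fragment island, and the chromosome 10 window no island in any of the 8 lists. The antigen receptor loci, which are rearranged and expressed in lymphocytes, held 2 members, both at Tcra. Igk had no island in any list and Igh none outside the longer-fragment lists, where 0.917 and 1.65% was covered. Tcra was 20.5 and 23.0% covered in the longer-fragment lists and 4.68 to 6.87% in the others. Tcrb was 12.2 and 23.7% covered in the longer-fragment lists and 0 to 5.44% in the others.

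Keratin clusters, silent outside epithelia such as skin, were covered well by both classes. Members filled 9.66% of the type I window on chromosome 11 (3 members) and 4.20% of the type II window on chromosome 15 (2 members). In the type I window longer fragments covered 89.0 and 86.7% and shorter fragments 26.4 to 55.7%. In the type II window the values were 96.7% in both lists and 45.3 to 85.4%. The HoxA, HoxC and HoxD windows, classical Polycomb targets, held 0 members and were 97.1 to 100% covered in all 8 lists. HoxB had no window here. It lies on chromosome 11 at about the stretches given above that had no island in either longer-fragment list, so the other Hox clusters do not stand for it.

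Windows over liver genes held no member. The 5 windows over Alb and Afp, Serpina1, the fibrinogen genes, Apoa1 to Apoa5 and the Mup genes, whose products are secreted by hepatocytes, had 0 members. Alb and Afp, Serpina1 and Apoa1 to Apoa5 had no island in any of the 8 lists. Their windows were small, at 120, 400 and 80 kb. The Mup window was 4.87 and 3.98% covered in the longer-fragment lists and 2.22 to 5.16% in the others. The fibrinogen window was 26.0 and 26.4% covered in the longer-fragment lists and 5.60 to 28.8% in the others. The Cyp2c and Cyp3a windows, which hold drug-metabolising P450 genes, also had 0 members. There the longer fragments covered less than most of the shorter ones, with 0.44 and 0.72% against 0 to 5.88% at Cyp2c and 0.64 and 1.20% against 0 to 4.80% at Cyp3a.

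To ask how far absence from the shorter-fragment lists held from liver to liver, each of the 6 was left out in turn. The islands absent from the other 5 and supported by the TCPOBOP list were taken, and those listed in the left-out liver were counted. The left-out vehicle livers found 247 of 5115 (4.83%), 585 of 5453 (10.7%) and 312 of 5180 (6.02%) in replicates 1, 2 and 3. The left-out TCPOBOP livers found 368 of 5236 (7.03%), 291 of 5159 (5.64%) and 138 of 5006 (2.76%). Of all autosomal islands of the vehicle list, 29.0 to 51.5% shared a base with a given liver. Absence from the other 5 lists selects islands of low score, so a lower percent among them follows from the choice. Vehicle replicate 1 came from the same ChIP sample as the list itself and had the widest cover of the 6, at 340 Mb. It found a lower percent than vehicle replicates 2 and 3 and TCPOBOP replicates 1 and 2. The lowest score in its list, 84.6, was also the highest such floor of the 6. The floor was 48.3 and 41.0 in vehicle replicates 2 and 3. In TCPOBOP replicates 1 to 3 it was 44.2, 71.0 and 77.7. Whether the floor of a list set its percent was not tested.

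Treatments overlapped on this measure. The vehicle mean was 7.19 ± 3.12% and the TCPOBOP mean 5.14 ± 2.18% (SD, n = 3 each). The TCPOBOP minus vehicle difference was -2.05 percentage points (two-sided exact permutation p = 0.5, adjusted over the 2 measures 0.5). With 3 livers against 3 the smallest p is 0.1, so the test could not pass 0.05. The islands counted for a liver are those that no other shorter-fragment list holds, so each value depends on the other livers. The islands come from the vehicle longer-fragment list, which shares its ChIP sample with vehicle replicate 1. For these reasons this p cannot decide whether treatment changed the percent. The difference was -0.0958 with all 6 lists at the covered length of the shortest, and -0.59 without vehicle replicate 2 and -0.869 without TCPOBOP replicate 3.

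The second measure was the percent of members with a shorter-fragment island of a given liver within 10 kb. It was 7.58, 9.39 and 5.75% with vehicle (replicates 1 to 3) and 6.80, 7.31 and 3.33% with TCPOBOP. For the other islands of the vehicle list the range was 45.95 to 77.0%, but shared bases count as nearby there and the rule bars them in members, so the gap between these ranges is built into the choice. The means of 7.57 ± 1.82% and 5.81 ± 2.17% (SD, n = 3 each) differed by -1.76 percentage points (two-sided exact permutation p = 0.4, adjusted over the 2 measures 0.5). All 6 livers took part in choosing the members they were scored on, with none left out. The members also come from the vehicle longer-fragment list. This p therefore cannot decide whether treatment changed the measure. The treatments overlapped. TCPOBOP replicate 3 was the lowest on both measures and had the smallest covered length, 174 Mb. Without it the difference was -0.539, without vehicle replicate 2 it was -0.837, and at equal covered length it turned to 0.246.

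**Figure D5:**
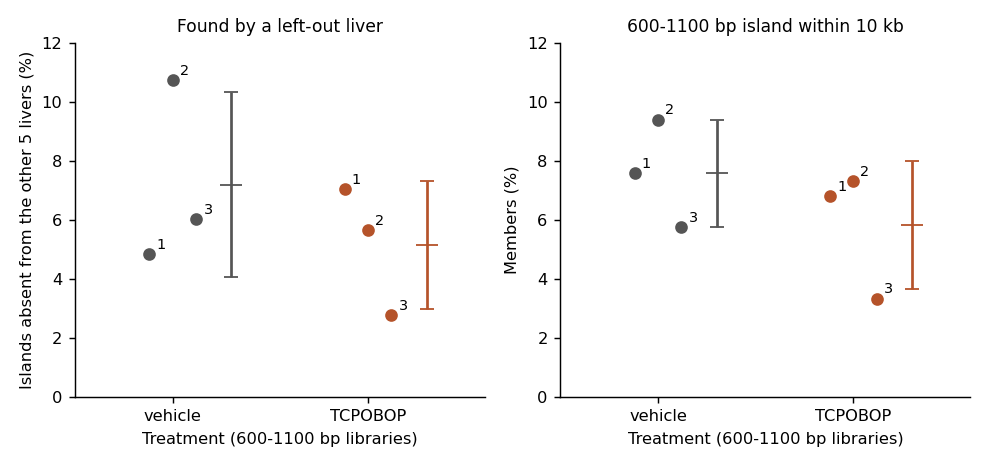
Left, percent of islands absent from the other 5 shorter-fragment livers that the left-out liver listed; right, percent of long-fragment-only islands with a 600 to 1100 bp island of that liver within 10 kb. Points are livers with their replicate number, and bars are the mean and SD of 3. Vehicle livers lie at 4.83 to 10.7% (left) and 5.75 to 9.39% (right), TCPOBOP livers at 2.76 to 7.03% and 3.33 to 7.31%.

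With both longer-fragment lists cut, highest score first, to the covered length of the longest shorter-fragment list, 40 islands over 2.94 Mb met the rule, with a median of 72.2 kb. Members are mostly low in score, so a cut in this order removes most of them by construction, and the fall in number is no measure of what list length does.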

How the data were processed

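The deposited lists give islands with a score each, called by the authors on each library separately. The score is the authors' value, relative to that library's own background. Bowtie2 2.3.2, SICER 1.1 and mm9 are named in the submitters' processing notes. Whether an input was used is not given in the sources used. The file names show a 400 bp window and a 2400 bp gap. Deposited ends were taken as the last base, and coordinates are mm9 and 1-based. Overlaps were computed on the 400 bp grid in Python 3.11.15 with scipy 1.17.1, numpy 2.4.6, matplotlib 3.10.9 and pandas 2.3.3.

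The lists hold no read counts. Background reads came from score steps (shorter fragments) or the narrowest islands (longer fragments), assuming that a window's score is minus the natural log of its Poisson probability and that windows count from a tail of 0.2. These forms are from general knowledge of the caller. On simulated data the methods recovered 3 of 3 and 3 of 3 lists. The simulated lists were made with the same assumed forms, so this recovery is no check of those forms. The step matching gave 69 to 9832 matches against 0 to 94 for the next value. For longer fragments the value was solved from the narrowest island and tried on the next narrowest alone. In the vehicle library neither was autosomal. The misfit was 3.68e-09 with vehicle and 4.37e-09 with TCPOBOP, against 4.89e-06 and 9.07e-05 for the next value. The read levels given above rest on the vehicle value.

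Livers were compared by two-sided exact permutation of the difference of means over 20 labellings. Named regions were the 5 widest, highest by score, highest by score per kb and farthest members, the 3 longest runs and the islands nearest the rule's edges. Gene windows are approximate, and gene order is from RefSeq GRCm38.p6. The members and lists were chosen with earlier results of these data known.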

Additional observations from a re-analysis of the deposited data

How the results depend on the processing

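Of 14 alternatives, 11 left the number of members within 1.5 times 4868. It was 1635 when full cover by the TCPOBOP list was asked, 40 with the longer-fragment lists cut, highest score first, to the longest shorter-fragment list, which removes low-score members by construction, and 7323 with a score minimum in every list, which removes shorter-fragment islands by construction. Leaving out 1 shorter-fragment list, which loosens the rule, gave 5006 to 5453. The difference between treatments in islands found by a left-out liver kept its sign under all 11 alternatives. It was -3.84 to -0.59 percentage points with 1 liver left out, and only -0.0958 at equal covered length. For nearby islands the difference kept its sign under 11 of 12. It was -2.74 to -0.539 with 1 liver left out and turned to 0.246 at equal covered length. The cause was not tested. Both counts include the replicate block, which leaves the difference unchanged by construction. No exact test could pass 0.05.

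With the replicate number as a block, the differences were -2.05 (exact p = 0.5) and -1.76 (exact p = 0.25, the smallest that 8 sign flips allow). Same-numbered livers correlated at 0.0543, 0.0209 and 0.153 in their deviations over 17512 islands. Livers with unlike numbers correlated at 0.0733, -0.123, -0.00242, -0.0184, -0.0575 and -0.101. The replicate numbers do not name a shared animal, so they were not taken to mark pairs in the main test. These correlations do not settle whether they do. Total reads are unknown, so no counting interval was computed, and absence from a list of 2.398 to 3.26 background reads per window was not separable from low depth.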
